A study of Mus musculus with 4 samples.

Results

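The DNA replication genes are the 40 genes of origin licensing, the replisome, nucleotide synthesis and S-phase entry, taken by symbol from a deposited gene table of 54532 genes. Each of the 40 symbols matched 1 gene, and all 40 passed the filter on low counts. They were followed in mouse astrocytes, the glial cells that support neurons, treated with a small interfering RNA (siRNA). The 2 Ptbp1 siRNA libraries came from cells given an siRNA against Ptbp1, which encodes a splicing repressor of non-neuronal cells. The 2 NC siRNA libraries came from cells given the siRNA labelled NC, which the sample descriptions call a control. The labels give no genotype, strain, age, dose or time, nor whether replicate libraries stem from independent cultures. The p-values therefore measure the spread between these libraries, which may be technical.

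Chromosomes are copied once per cell cycle. In G1, the origin recognition complex, Cdc6 and Cdt1 load rings of Mcm2 to Mcm7 onto DNA, and cyclin E activity with E2F transcription factors then opens S phase. Cdc45 and the GINS proteins turn the ring into an active helicase, polymerase alpha with primase starts each strand, and polymerases delta and epsilon extend it on the PCNA clamp. These transcripts are low in resting cells and rise as cells enter the cycle, and astrocytes are a glial type that can divide in culture.

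The libraries held 14557844 and 14981622 counts with Ptbp1 siRNA and 16009248 and 15002578 with NC siRNA. The replication genes took 0.153% and 0.143% of the counts with Ptbp1 siRNA, against 0.153% and 0.145% with NC siRNA. Ptbp1 itself stood at 203 and 196 CPM (counts scaled to library size with TMM factors) with Ptbp1 siRNA, against 300.4 and 295 CPM with NC siRNA. The difference was -0.58 on the log2 scale (SE 0.063, edgeR quasi-likelihood test with Benjamini-Hochberg adjusted p = 0.00127). All 10 astrocyte markers looked up had counts in every library, with a summed level of 2160.2 to 2435 CPM with Ptbp1 siRNA and 2351 to 2478 CPM with NC siRNA. Markers of other cells were present too. Those of fibroblasts and pericytes summed to 5434 to 6388 CPM with Ptbp1 siRNA and 6014 to 6288 CPM with NC siRNA, with all 8 markers counted in every library. For microglia and macrophages, all 10 markers were counted and the sums were 898 to 948 CPM with Ptbp1 siRNA and 952 to 959 CPM with NC siRNA. The 8 oligodendrocyte lineage markers summed to 323 to 355 CPM with Ptbp1 siRNA and 353 to 357 CPM with NC siRNA. The 5 endothelial markers summed to 75.2 to 90.8 CPM with Ptbp1 siRNA and 79.2 to 91.5 CPM with NC siRNA, with Cldn5 at 0 in every library. Neuron markers summed to 247 to 259.7 CPM with Ptbp1 siRNA and 244 to 255 CPM with NC siRNA, and 6 of 7 had counts in every library. Ependymal markers, 5 of 5, summed to 345 to 359 CPM with Ptbp1 siRNA and 366 to 386 CPM with NC siRNA. Choroid plexus markers, of which 4 of 6 had counts in every library, summed to 54.3 to 69.2 CPM with Ptbp1 siRNA and 70.1 to 424 CPM with NC siRNA, and all 4 that were tested were highest in NC siRNA 2. The counts do not tell which of these cells carried the replication transcripts. In such bulk RNA, fewer dividing cells and less transcript per cell cannot be told apart.

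No replication gene changed past the test between Ptbp1 siRNA and NC siRNA. Of the 40 members, 0 had an edgeR adjusted p under 0.05, where 0.0244% of the 16368 genes tested did, which are 1 gene that was higher and 3 that were lower. At an unadjusted p under 0.05 there was 1 member, Mcm7, against 3.98% of all genes tested. DESeq2 also called 0 members, with 0 at an unadjusted p under 0.05, where 0.512% of the 29505 genes in that fit were. The authors' deposited table gave 0 members an adjusted p under 0.05, against 0.0148% of its tested genes. The authors' deposited table gave 0 members an unadjusted p under 0.05, against 0.56% of its tested genes, and its smallest unadjusted p for a member was 0.108. The DESeq2 fit and the deposited table each had 151 genes at an unadjusted p under 0.05. Their log2 fold changes for Mcm7 were both 0.1427, so they are not counted as separate checks. The median log2 fold change was -0.04 over the members and 0.00036 over all genes tested. A negative value was found for 27 of 40 members, against 49.8% of all genes tested. That majority depended on single libraries. A lower mean CPM with Ptbp1 siRNA held for 18 members without Ptbp1 siRNA 2 and for 16 without NC siRNA 1. It held for 28 members without Ptbp1 siRNA 1 and for 30 without NC siRNA 2. Without NC siRNA 1 the members' median was 0.02 on the log2 scale. Single members lay between -0.48 and 0.26.

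Given the spread between these libraries, which may be technical, the intervals limit what change could have gone unseen per gene. They hold for these libraries, where Ptbp1 itself stood at 0.669-fold. For 35 of 40 members the 95% interval of the fold change lay inside 1.5-fold in either direction, where 67.1% of all genes tested had such an interval. The 24 members with a mean of at least 20 CPM had intervals whose bounds ran from 0.749-fold to 1.44-fold. The 5 whose interval reached 1.5-fold were Orc1, Gins1, Pole2, Fen1 and Ccne1. Counts per library ran from 22 for Fen1 in Ptbp1 siRNA 2 to 2236 for Pcna in NC siRNA 1.

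**Figure D1:**
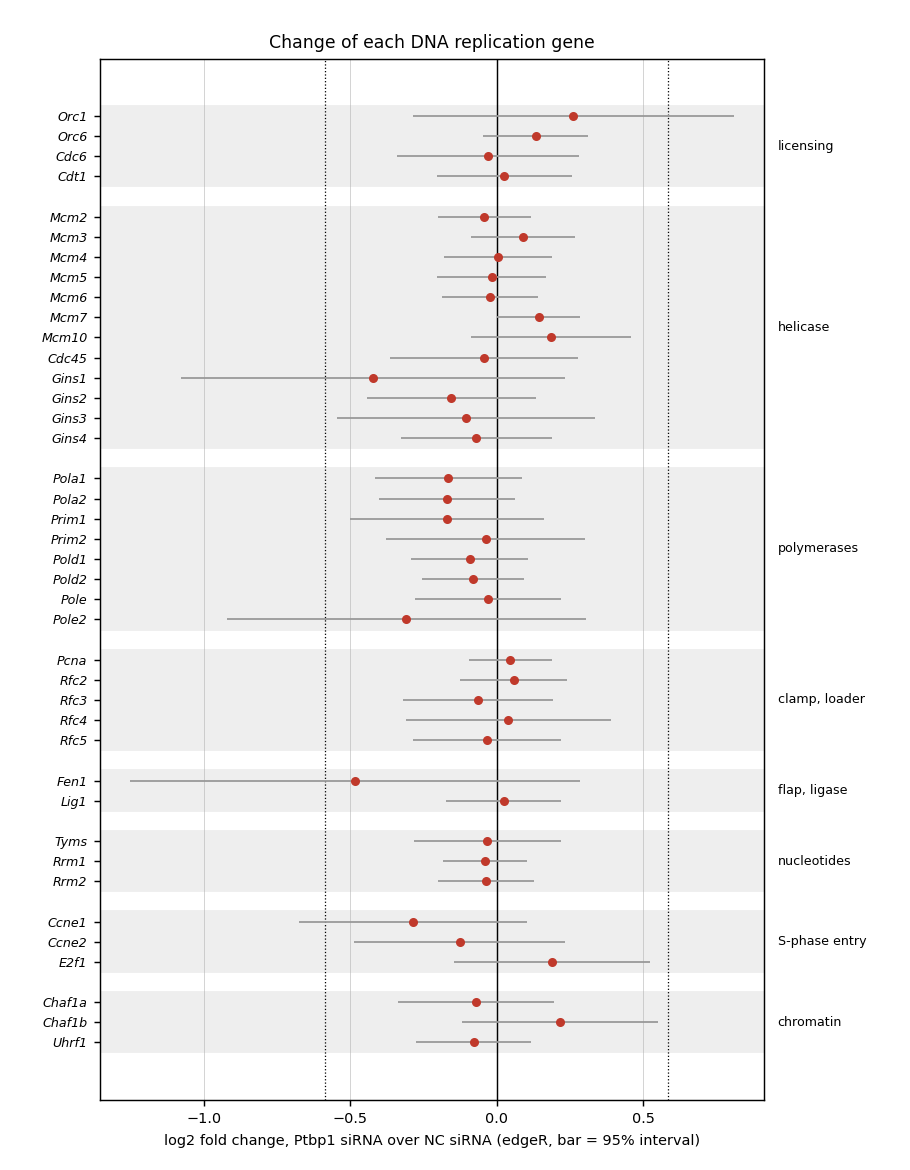
Log2 fold change of each of the 40 DNA replication genes, Ptbp1 siRNA over NC siRNA (edgeR, 2 libraries per group), with bars for the 95% interval and dotted lines at a 1.5-fold change. The bars of 39 genes cross 0, that of Mcm7 starts at 0.00088, and the widest belong to Fen1 and Gins1.

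The groups overlapped for 28 members. Both Ptbp1 siRNA libraries lay above both NC siRNA libraries for 5 members, against 15.6% of all genes tested, and below both for 7, against 15.9%. The 5 were Orc1, Orc6, Mcm7, Mcm10 and Pcna, and the 7 were Gins1, Gins2, Pola2, Pold1, Pold2, Pole2 and Fen1. At 12 of 40 members against 31.5% of genes, the share is near the background.

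Origins are marked and licensed in G1 by the origin recognition complex and its partners. Orc6, a subunit of the complex (ENSMUSG00000031697, GRCm38 chr8:85299632-85308278, plus strand), stood at 43.9 and 44.2 CPM in the Ptbp1 siRNA libraries, against 40.17 and 40.15 CPM in the NC siRNA libraries. The groups did not overlap. The difference of 0.13 on the log2 scale (SE 0.084) did not pass the test (edgeR adjusted p = 1.00). Orc1, the subunit whose level follows the cell cycle in human cells, was far rarer, with 67 and 64 counts with Ptbp1 siRNA and 53 and 62 with NC siRNA. Its 95% interval was correspondingly wide, from -0.29 to 0.81. Cdc6, the ATPase that recruits the helicase to origins, had 13.2 and 13.3 CPM with Ptbp1 siRNA and 14.3 and 12.7 CPM with NC siRNA, so its groups overlapped. Cdt1, the licensing factor destroyed in S phase, had 45.9 and 36.4 CPM with Ptbp1 siRNA and 42.8 and 38.0 CPM with NC siRNA. For Cdt1 the libraries of a group differed more than the group means did.

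E2F factors are known to drive genes of the helicase ring, and the words below are what such factors read. The windows are RefSeq sequences on GRCm38.p6, from 250 bases before to 50 bases after the transcription start, in the direction of the gene. Mcm6 is at chr1:128359656-128359955 (minus strand), Mcm7 at chr5:138171834-138172133 (minus strand), Mcm3 at chr1:20820263-20820562 (minus strand) and Mcm5 at chr8:75109259-75109558 (plus strand). These are the members with the most matches, ties going to the higher CPM, so their matches follow from the choice. Of the other ring genes, Mcm2 had no match and Mcm4 had no window. Capitals mark each match, on either strand, to the words TTTCCCGC, TTTCGCGC, TTTGCCGC and TTTGGCGC, and neighbouring matches can overlap, as they do in Mcm6 and Mcm5.
Mcm6: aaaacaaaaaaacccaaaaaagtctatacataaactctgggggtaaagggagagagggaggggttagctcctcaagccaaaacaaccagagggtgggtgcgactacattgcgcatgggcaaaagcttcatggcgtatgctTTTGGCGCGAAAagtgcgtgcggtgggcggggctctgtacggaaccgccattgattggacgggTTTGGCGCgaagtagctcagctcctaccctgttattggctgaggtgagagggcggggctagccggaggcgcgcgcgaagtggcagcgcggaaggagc
Mcm7: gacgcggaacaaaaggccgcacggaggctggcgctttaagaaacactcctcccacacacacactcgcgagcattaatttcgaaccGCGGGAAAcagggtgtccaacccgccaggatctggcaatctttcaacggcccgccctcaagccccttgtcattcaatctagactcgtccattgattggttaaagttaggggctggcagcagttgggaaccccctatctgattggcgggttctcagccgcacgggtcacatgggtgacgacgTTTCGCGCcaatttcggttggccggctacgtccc
Mcm3: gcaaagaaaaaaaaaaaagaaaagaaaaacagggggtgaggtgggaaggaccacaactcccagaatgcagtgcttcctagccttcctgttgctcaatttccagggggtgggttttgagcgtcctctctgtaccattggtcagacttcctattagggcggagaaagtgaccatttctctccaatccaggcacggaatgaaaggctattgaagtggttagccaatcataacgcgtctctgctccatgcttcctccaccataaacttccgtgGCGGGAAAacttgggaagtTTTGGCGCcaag
Mcm5: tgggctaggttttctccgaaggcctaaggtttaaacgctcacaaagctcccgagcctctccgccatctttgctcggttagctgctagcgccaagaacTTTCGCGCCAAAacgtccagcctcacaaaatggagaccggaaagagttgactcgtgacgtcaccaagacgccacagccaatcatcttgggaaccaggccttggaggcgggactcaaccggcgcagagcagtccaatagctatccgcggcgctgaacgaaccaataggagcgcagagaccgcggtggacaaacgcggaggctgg

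Of the 40 members, 32 had a promoter in the RefSeq table, in 38 windows, and 14 of the 32 (43.8%) held at least 1 of these words. Over all genes in the table the share was 2.60%. CCAAT, the box read by the NF-Y factor, searched on both strands, was in 59.4% of the members with a window and in 41.1% of all genes. The word TTTGAA, the core of the cell cycle homology region known from genes of late G2 and mitosis, was in 15.6% of members and in 20.2% of all genes. Among the 66 other replication genes, used for comparison, 53 had a promoter, of which 17 (32.1%) held an E2F word. In the same 53, 28 (52.8%) held CCAAT and 11 (20.8%) held TTTGAA. Among the 22 mitosis genes, also used for comparison, 19 had a promoter, of which 1 held an E2F word. In the same 19, 16 (84.2%) held CCAAT and 14 held TTTGAA. A match is a description of letters and does not show binding. The 14 members with an E2F word had a median log2 fold change of -0.03 and the 18 without one had -0.04, with 0 called in either set.

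**Figure D2:**
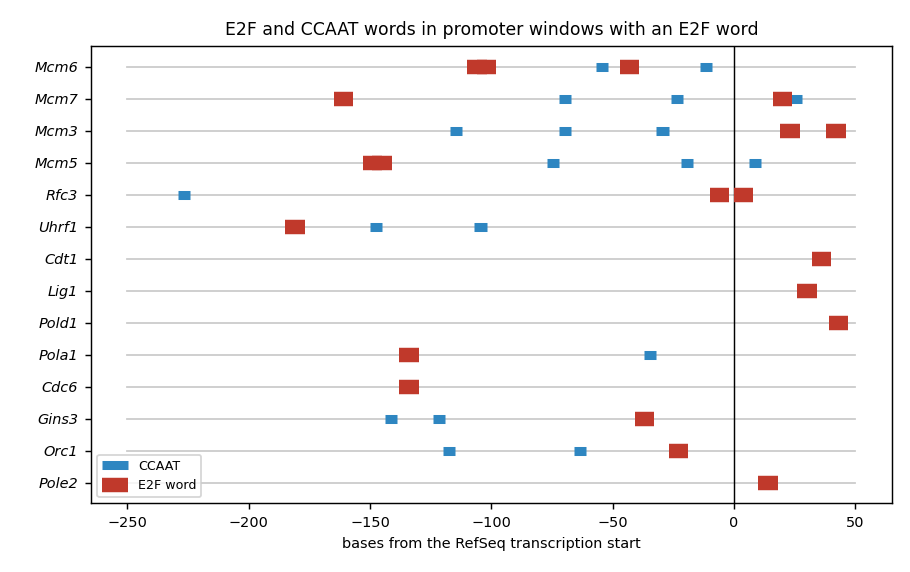
Positions of E2F words (red) and CCAAT (blue) in the promoter windows of the 14 members with an E2F word, in bases from the RefSeq transcription start (vertical line). In Mcm6 and Mcm5 a pair of E2F words overlaps and appears as 1 wider block.

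Mcm7, a subunit of the ring (ENSMUSG00000029730, GRCm38 chr5:138164583-138172422, minus strand), stood at 125.0 and 125 CPM with Ptbp1 siRNA, against 115 and 111 CPM with NC siRNA. Both Ptbp1 siRNA libraries were higher. The log2 fold change was 0.14 (SE 0.067, 95% interval 0.00088 to 0.28), with an unadjusted p of 0.0488 and an edgeR adjusted p of 1.00. The other ring genes gave no such separation. Mcm6 had 109 and 94.9 CPM with Ptbp1 siRNA and 106 and 101 CPM with NC siRNA, and Mcm2 had 81.9 and 78.7 CPM with Ptbp1 siRNA, against 86.7 and 78.6 CPM with NC siRNA. Mcm3 had 66.1 and 58.6 CPM with Ptbp1 siRNA, against 61.0 and 56.1 CPM with NC siRNA. Over Mcm2 to Mcm7 the log2 fold changes ran from -0.04 to 0.14, and no 95% interval went beyond -0.20 or 0.28. In Mcm4, Mcm5 and Mcm6 the highest and the lowest of the 4 libraries were both Ptbp1 siRNA libraries. Mcm4 had 63.3 and 53.9 CPM with Ptbp1 siRNA, against 59.9 and 56.8 CPM with NC siRNA, and Mcm5 had 50.3 and 43.9 CPM with Ptbp1 siRNA, against 47.5 and 47.8 CPM with NC siRNA.

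The ring genes did not have equal levels. On the deposited FPKM scale (a fragment count scaled to library size and gene length), Mcm7 averaged 28.2 ± 0.0748 FPKM with Ptbp1 siRNA and 25.5 ± 0.612 FPKM with NC siRNA (SD, n = 2 each). Mcm5 averaged 11.7 ± 1.12 FPKM with Ptbp1 siRNA and 11.9 ± 0.0419 FPKM with NC siRNA. Mcm2 averaged 11.5 ± 0.318 FPKM with Ptbp1 siRNA and 11.8 ± 0.814 FPKM with NC siRNA. In the NC siRNA libraries the order was Mcm7, Mcm6, Mcm4, Mcm3, Mcm5, Mcm2. The SD ranges of Mcm4 (16.2 ± 0.608 FPKM) and Mcm3 (15.5 ± 0.918 FPKM) overlapped, and so did those of Mcm5 and Mcm2 (SD, n = 2). The highest was 2.16 times the lowest.

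That order depends on the length used. The deposited length equals the union of all annotated exons in GENCODE M21 for 39 of 40 members, and it was a median of 1.42 times and up to 3.01 times the length of the principal transcript. With CPM per kilobase of the principal transcript, Mcm2 moved from the lowest to the third place, at 23.8 ± 0.669 with Ptbp1 siRNA and 24.5 ± 1.69 with NC siRNA (SD, n = 2 each). Mcm5 was then the lowest, at 13.9 ± 1.34 with Ptbp1 siRNA and 14.1 ± 0.0458 with NC siRNA, and the highest was 2.72 times the lowest.

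Cdc45 and the GINS subunits complete the helicase. Cdc45 had 12.7 and 11.9 CPM with Ptbp1 siRNA and 13.3 and 12.1 CPM with NC siRNA. All 4 GINS genes had negative log2 fold changes, between -0.42 and -0.07, and none passed. With Ptbp1 siRNA 1 left out, the mean CPM of Gins3 and Gins4 was higher with Ptbp1 siRNA. Gins1, the rarest, had 35 and 39 counts with Ptbp1 siRNA and 63 and 42 with NC siRNA, and its 95% interval reached from -1.08 to 0.23. Gins4 had 24.5 and 31.5 CPM with Ptbp1 siRNA and 27.9 and 30.9 CPM with NC siRNA, so the Ptbp1 siRNA libraries held both extremes. The same was true of Gins3, which had 6.06 and 8.59 CPM with Ptbp1 siRNA, against 8.30 and 7.47 CPM with NC siRNA. Gins2 had 16.3 and 14.4 CPM with Ptbp1 siRNA, against 17.6 and 16.5 CPM with NC siRNA, and its groups did not overlap. Although the 4 proteins work in 1 complex, Gins4 averaged 20.7 ± 3.70 FPKM with Ptbp1 siRNA and 21.7 ± 1.54 FPKM with NC siRNA (SD, n = 2 each). Gins1 averaged 1.65 ± 0.0964 FPKM with Ptbp1 siRNA and 2.21 ± 0.523 FPKM with NC siRNA. Per kilobase of the principal transcript Gins4 also had the highest level of the 4. Mcm10, which helps to start the fork, had 18.8 and 17.7 CPM with Ptbp1 siRNA and 15.8 and 16.3 CPM with NC siRNA, a log2 fold change of 0.19 (SE 0.13).

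**Figure D3:**
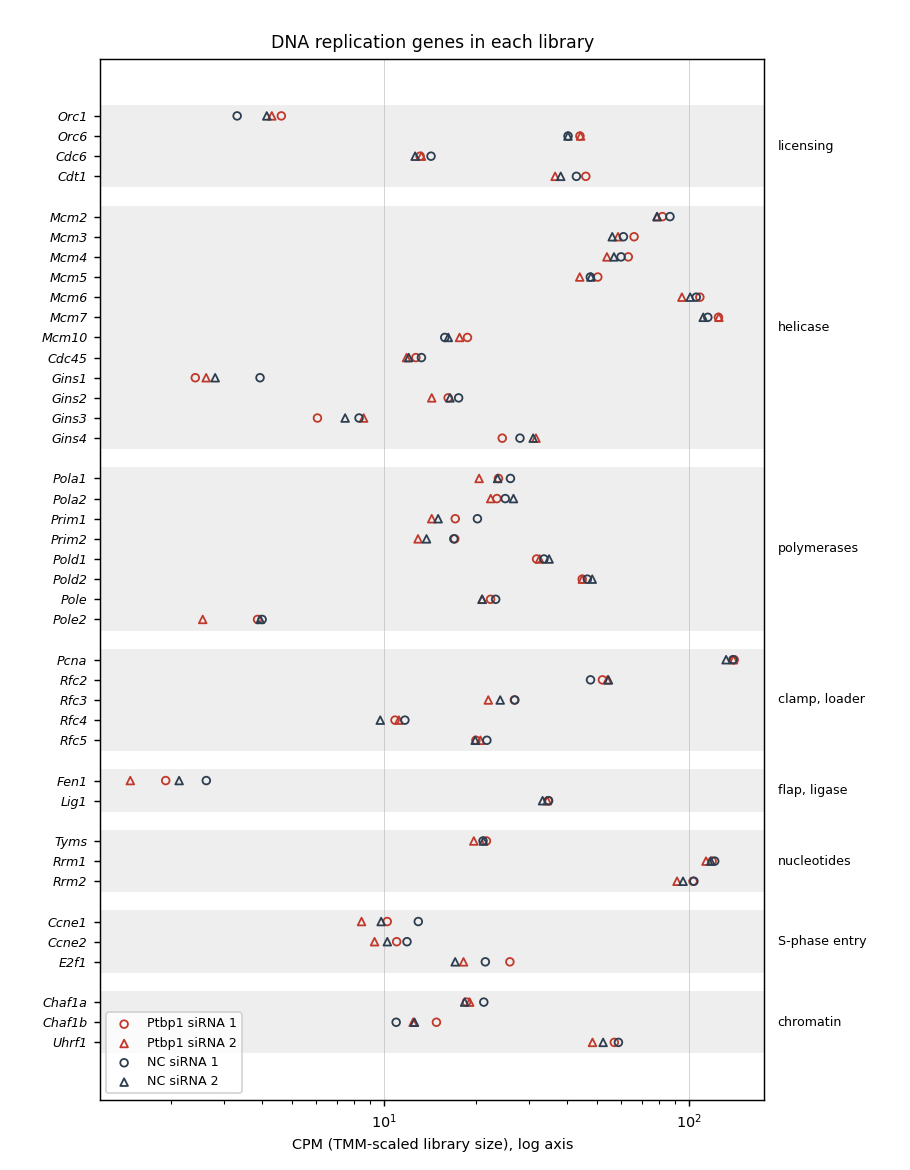
CPM of the 40 DNA replication genes in each library on a log axis, grouped by role, with Ptbp1 siRNA in red and NC siRNA in dark blue, circles for library 1 and triangles for library 2. The groups overlap for 28 genes, and levels run from about 2 CPM for Fen1 to about 140 CPM for Pcna.

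The polymerase and primase genes all had negative log2 fold changes, 8 of 8, between -0.31 and -0.03, and none passed the test. Without Ptbp1 siRNA 2 the mean CPM was lower with Ptbp1 siRNA in 6 of 8, and without NC siRNA 1 in 5 of 8. It was lower in 8 of 8 without Ptbp1 siRNA 1 and also without NC siRNA 2. Pola2, the regulatory subunit of polymerase alpha (ENSMUSG00000024833, GRCm38 chr19:5940543-5964206, minus strand), had 23.5 and 22.4 CPM with Ptbp1 siRNA, against 25.02 and 26.6 CPM with NC siRNA. Its log2 fold change was -0.17 (SE 0.11, 95% interval -0.40 to 0.06, edgeR adjusted p = 1.00), and the groups did not overlap. Pold2, the accessory subunit of polymerase delta (ENSMUSG00000020471, chr11:5872180-5878292, minus strand), had 44.7 and 44.8 CPM with Ptbp1 siRNA, against 46.5 and 48.2 CPM with NC siRNA. The separation was small, at -0.08 on the log2 scale (SE 0.082, edgeR adjusted p = 1.00). Pold1, the catalytic subunit of the same enzyme, had 31.7 and 32.4 CPM with Ptbp1 siRNA and 33.5 and 34.8 CPM with NC siRNA.

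The primase genes differed more within groups than between them. Prim1, the catalytic primase subunit, had 17.2 and 14.4 CPM with Ptbp1 siRNA and 20.3 and 15.1 CPM with NC siRNA. Prim2, its partner, had 17.1 and 12.95 CPM with Ptbp1 siRNA, against 17.0 and 13.8 CPM with NC siRNA. In both genes library 1 of each group was higher than library 2 by more than the difference between the group means. Pola1, the catalytic subunit of polymerase alpha, had 23.8 and 20.5 CPM with Ptbp1 siRNA and 26.0 and 23.6 CPM with NC siRNA. Pole, the catalytic subunit of polymerase epsilon, had 22.4 and 21.0 CPM with Ptbp1 siRNA and 23.3 and 21.0 CPM with NC siRNA, and its log2 fold change was -0.03 (SE 0.12). Pole2, its accessory subunit, had 56 and 38 counts with Ptbp1 siRNA, against 64 and 59 counts with NC siRNA, and a 95% interval from -0.92 to 0.30.

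Pcna, the sliding clamp that tethers polymerases to DNA (ENSMUSG00000027342, GRCm38 chr2:132249162-132253314, minus strand), had the highest counts among the members. It stood at 141 and 140.0 CPM with Ptbp1 siRNA, against 139.5 and 132 CPM with NC siRNA. The log2 fold change was 0.05 (SE 0.066, 95% interval -0.09 to 0.19, edgeR adjusted p = 1.00), which corresponds to a fold between 0.937 and 1.14. The clamp loader genes Rfc2 to Rfc5 had log2 fold changes between -0.06 and 0.06, and their groups overlapped in each case. Rfc3 had 26.8 and 22.01 CPM with Ptbp1 siRNA and 26.9 and 24.1 CPM with NC siRNA, while Rfc2 had 52.1 and 54.1 CPM with Ptbp1 siRNA, against 47.6 and 54.5 CPM with NC siRNA. Rfc4 had 10.9 and 11.2 CPM with Ptbp1 siRNA and 11.7 and 9.74 CPM with NC siRNA, and Rfc5 had 20.05 and 20.7 CPM with Ptbp1 siRNA and 21.8 and 19.9 CPM with NC siRNA.

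Lig1, the ligase that joins Okazaki fragments (ENSMUSG00000056394, GRCm38 chr7:13277283-13311433, plus strand), had 34.6 and 34.4 CPM with Ptbp1 siRNA and 34.7 and 33.1 CPM with NC siRNA. The log2 fold change was 0.02 (SE 0.093, edgeR adjusted p = 1.00). Fen1, the nuclease that trims the flaps before ligation (ENSMUSG00000024742, chr19:10199132-10204169, minus strand), had 28 and 22 counts with Ptbp1 siRNA, against 42 and 32 with NC siRNA. The groups did not overlap. With a difference of -0.48 on the log2 scale (SE 0.36, 95% interval -1.25 to 0.28), Fen1 had an edgeR adjusted p of 1.00, and with 1 library left out the value ranged from -0.69 without Ptbp1 siRNA 1 to -0.30 without Ptbp1 siRNA 2. Fen1 had the lowest level per length of the 40 on both length scales, at 0.699 ± 0.131 FPKM with Ptbp1 siRNA and 0.977 ± 0.141 FPKM with NC siRNA (SD, n = 2 each).

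Exons of Fen1 overlap those of other genes. In GENCODE M21, 84.2% of the exon bases of Fen1 also lie in exons of genes on the opposite strand, 78.8% in the antisense gene Gm10143 and 5.37% in Tmem258. Gm10143 had 7 and 0 counts with Ptbp1 siRNA and 2 and 7 with NC siRNA. Tmem258 had 536 and 743 counts with Ptbp1 siRNA and 486 and 712 with NC siRNA. Gins2 shares 67.3% of its exon bases with Gse1 and Chaf1a 52.5% with Ubxn6, also on the opposite strand, and 26 members share none. Gse1 had 857 and 889 counts with Ptbp1 siRNA and 904 and 846 with NC siRNA. Ubxn6 had 200 and 197 counts with Ptbp1 siRNA and 222 and 210 with NC siRNA. The sources used here do not say whether the counting used strand, or how it treated reads that fall in several genes. The counts of Fen1, Gins2 and Chaf1a are therefore uncertain, and the part of the overlap in their levels was not tested. Of all 50-base stretches of Mcm7, 23.3% are found again in annotated RNAs of other genes, of which Gm5487, Ap4m1 and Mir93 share the most. No counts were found under the symbol Gm5487. For Pcna the share was 19.1%, all in the pseudogene Pcna-ps2, which had 8 and 14 counts with Ptbp1 siRNA and 8 and 14 with NC siRNA. The share was larger for Fen1 (76.7%), Gins2 (65.4%) and Chaf1a (49.7%), and it was over 5% for 15 members.

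**Figure D4:**
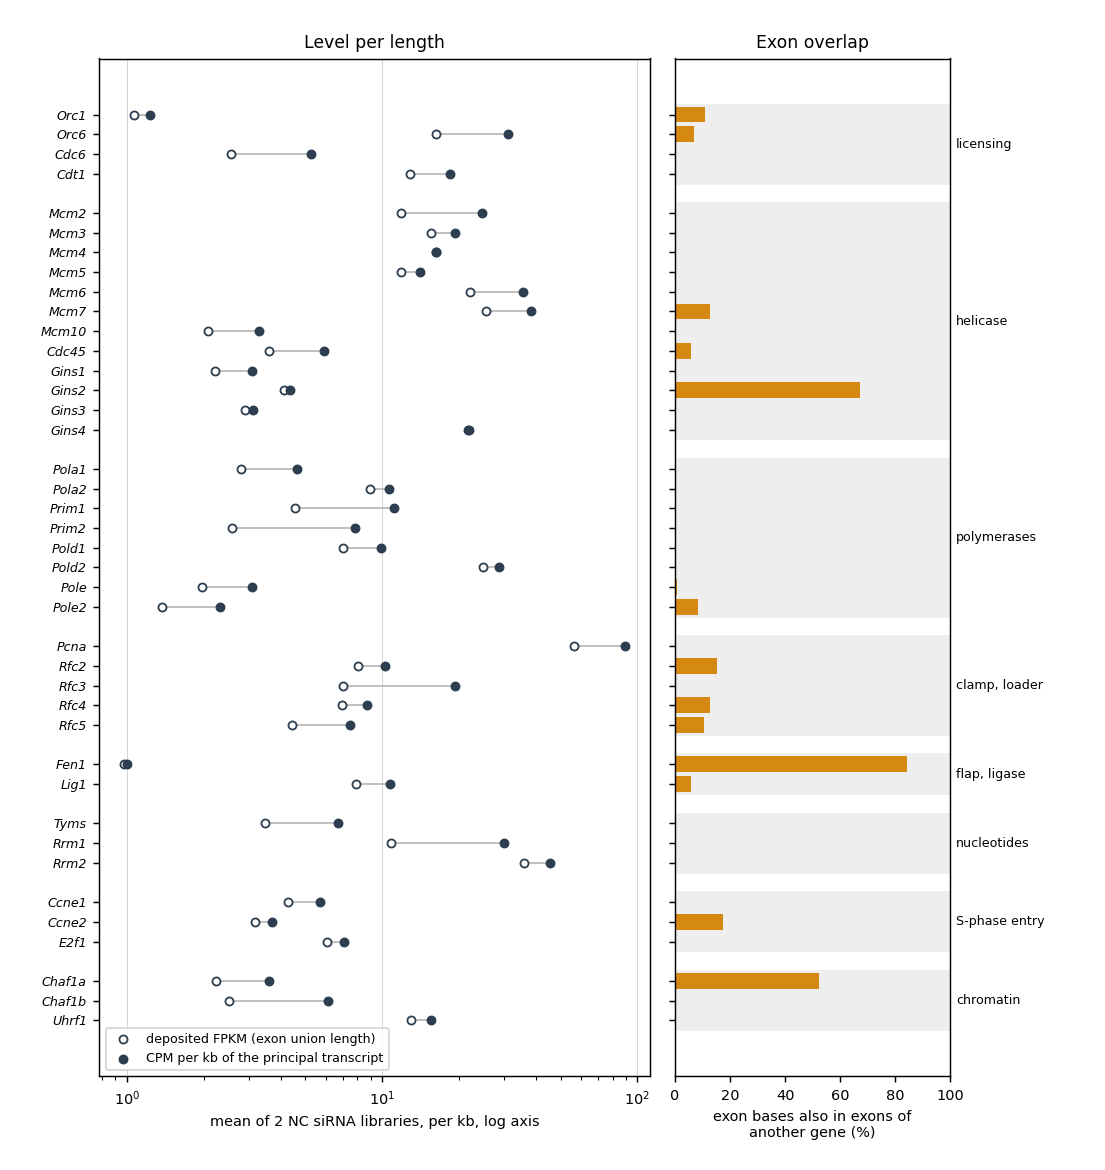
Left, mean level of each member over the 2 NC siRNA libraries on a log axis, as deposited FPKM (open circles) and as CPM per kilobase of the principal transcript (filled circles). Right, percent of its exon bases that also lie in exons of another gene, where Fen1 (84.2%), Gins2 (67.3%) and Chaf1a (52.5%) stand out.

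Rrm1 and Rrm2, the large and small subunits of the ribonucleotide reductase that makes deoxynucleotides, differed little between groups. Rrm1 (ENSMUSG00000030978, GRCm38 chr7:102441695-102469771, plus strand) had 119 and 114 CPM with Ptbp1 siRNA and 122 and 118 CPM with NC siRNA, a log2 fold change of -0.04 (SE 0.068, 95% interval -0.18 to 0.10, edgeR adjusted p = 1.00). Rrm2, the subunit that is degraded outside S phase, had 103 and 91.5 CPM with Ptbp1 siRNA and 104 and 95.7 CPM with NC siRNA. Tyms, the thymidylate synthase, had 21.7 and 19.7 CPM with Ptbp1 siRNA and 21.1 and 21.2 CPM with NC siRNA. The groups overlapped for all 3. The level of Rrm1 relative to the others depended on its length: it ranked 14 of 40 by FPKM with NC siRNA, and 6 of 40 per kilobase of the principal transcript, which has 3997 bases where the deposited length is 11012.

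The genes of S-phase entry were uneven within groups, with a summed level of 47.2 and 36.0 CPM with Ptbp1 siRNA and 46.4 and 37.2 CPM with NC siRNA. E2f1, a transcription factor that activates replication genes (ENSMUSG00000027490, GRCm38 chr2:154559407-154569892, minus strand), had 25.9 and 18.3 CPM with Ptbp1 siRNA, against 21.5 and 17.1 CPM with NC siRNA. The groups overlapped. E2f1 differed by 0.19 on the log2 scale (SE 0.16, 95% interval -0.15 to 0.52, edgeR adjusted p = 1.00), and the value was -0.09 without Ptbp1 siRNA 1, 0.04 without NC siRNA 2, 0.36 without NC siRNA 1 and 0.42 without Ptbp1 siRNA 2. Ccne1, a cyclin E gene (ENSMUSG00000002068, chr7:38097984-38107534, minus strand), had 10.3 and 8.46 CPM with Ptbp1 siRNA, against 12.98 and 9.80 CPM with NC siRNA. The groups overlapped, with a log2 fold change of -0.29 (SE 0.18, 95% interval -0.68 to 0.10, edgeR adjusted p = 1.00). Without NC siRNA 1 it was -0.07, without Ptbp1 siRNA 2 -0.15, without Ptbp1 siRNA 1 -0.43 and without NC siRNA 2 -0.47. Ccne2, the other cyclin E gene, had 11.02 and 9.33 CPM with Ptbp1 siRNA and 11.9 and 10.3 CPM with NC siRNA.

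Chaf1a and Chaf1b encode subunits of the chromatin assembly factor that loads histones behind the fork, and Uhrf1 directs the copying of DNA methylation. Uhrf1 (ENSMUSG00000001228, GRCm38 chr17:56303321-56323486, plus strand) had 57.0 and 48.3 CPM with Ptbp1 siRNA, against 58.8 and 52.4 CPM with NC siRNA, or -0.08 on the log2 scale (SE 0.092, edgeR adjusted p = 1.00). Chaf1b (ENSMUSG00000022945, chr16:93883901-93906115, plus strand) had 14.9 and 12.5 CPM with Ptbp1 siRNA, against 10.98 and 12.6 CPM with NC siRNA, or 0.21 on the log2 scale (SE 0.16, edgeR adjusted p = 1.00). With 1 library left out, Chaf1b ranged from 0.08 without Ptbp1 siRNA 1 to 0.34 without Ptbp1 siRNA 2, and Uhrf1 from -0.20 without Ptbp1 siRNA 1 to 0.04 without Ptbp1 siRNA 2. Chaf1a had 18.7 and 19.1 CPM with Ptbp1 siRNA and 21.3 and 18.4 CPM with NC siRNA. None of the 3 separated the groups.

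The members varied between libraries of a group as well as between groups. For each gene, log2 CPM was set against its mean over the 4 libraries, and the median over the members was 0.03 in Ptbp1 siRNA 1 and -0.07 in Ptbp1 siRNA 2, against 0.08 in NC siRNA 1 and -0.04 in NC siRNA 2. NC siRNA 1 was the highest library for 20 of 40 members, and Ptbp1 siRNA 2 was the lowest for 20. Within groups, the median difference was 0.10 for Ptbp1 siRNA 1 minus Ptbp1 siRNA 2 and 0.12 for NC siRNA 1 minus NC siRNA 2. Between groups it ranged from -0.14, for Ptbp1 siRNA 2 minus NC siRNA 1, to 0.08, for Ptbp1 siRNA 1 minus NC siRNA 2. For libraries of the same number, Ptbp1 siRNA minus NC siRNA was -0.05 for number 1 and -0.06 for number 2. The sign thus depended on the libraries set against each other, and was negative in both pairs of the same number. Library 1 was above library 2 in both groups for 22 members, or 55%, against 28.4% of all genes tested.

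**Figure D5:**
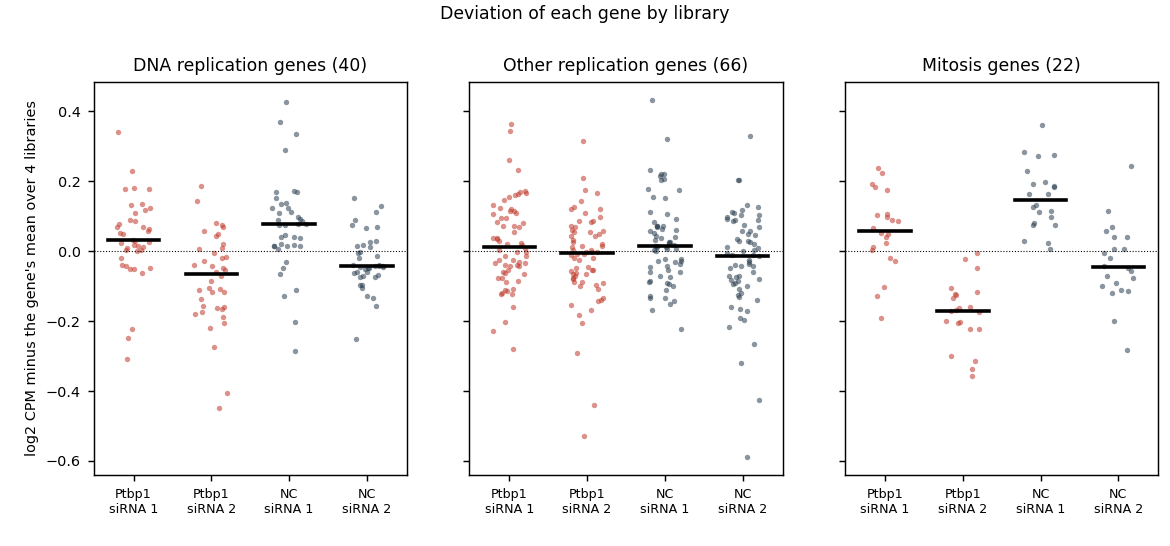
Log2 CPM of each gene minus its mean over the 4 libraries, for the 40 DNA replication genes, the 66 other replication genes and the 22 mitosis genes, with a bar at the median. Ptbp1 siRNA 2 has the lowest median in the first and the last panel, and NC siRNA 1 the highest in both.

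Most other lists were lowest in the same library, Ptbp1 siRNA 2, and some were not. Over the 22 mitosis genes the medians were 0.06 in Ptbp1 siRNA 1 and -0.17 in Ptbp1 siRNA 2, against 0.15 in NC siRNA 1 and -0.05 in NC siRNA 2. Astrocyte markers had medians of 0.04 and -0.11 with Ptbp1 siRNA and 0.07 and -0.01 with NC siRNA. Fibroblast and pericyte markers had 0.04 and -0.19 with Ptbp1 siRNA and 0.14 and 0.02 with NC siRNA. Ptbp1 siRNA 2 was the lowest library in the median of these 3 lists. It was also the lowest for microglia and macrophage (-0.17), oligodendrocyte lineage (-0.13), endothelial (-0.16) and neuron markers (-0.03). The 66 other replication genes had 0.01 and -0.005 with Ptbp1 siRNA and 0.01 and -0.01 with NC siRNA, lowest in NC siRNA 2. Ependymal markers had -0.11 and 0.02 with Ptbp1 siRNA and -0.16 and 0.18 with NC siRNA, lowest in NC siRNA 1, and choroid plexus markers were lowest in Ptbp1 siRNA 1. The median over all genes tested lay between 0.002 and 0.005 in every library. The part of the samples' cell makeup in the replication genes was not tested.

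Genes of the same pathway beyond the 40 were read from the same fit. Of 66 other replication genes, all of which were tested, 0 rose and 0 fell past the test. At an unadjusted edgeR p under 0.05 there were 4 (6.06%), against 3.98% of all genes tested. Their median log2 fold change was 0.02, with 29 negative values (43.9%), against 49.8% of all genes tested. Tfdp1, the partner that E2F factors need to bind DNA, had 153 and 159 CPM with Ptbp1 siRNA, against 135 and 138 CPM with NC siRNA, and both Ptbp1 siRNA libraries were higher (0.19 on the log2 scale, SE 0.066, edgeR adjusted p = 1.00). Hells, a chromatin remodeller needed for DNA methylation, had 28.3 and 28.6 CPM with Ptbp1 siRNA, against 34.9 and 32.1 CPM with NC siRNA (-0.24 on the log2 scale, SE 0.099, edgeR adjusted p = 1.00). Mcm8, a relative of the ring genes that works in recombination repair, had 22.5 and 23.8 CPM with Ptbp1 siRNA, against 19.3 and 19.1 CPM with NC siRNA (0.27 on the log2 scale, SE 0.12, edgeR adjusted p = 1.00). Their unadjusted p-values were 0.00926, 0.0302 and 0.0336 in edgeR. Of the 66 genes, 11 had both Ptbp1 siRNA libraries above both NC siRNA libraries, against 15.6% of all genes tested. Another 11 had both below, against 15.9%. In all, the groups did not overlap for 33.3% of the 66, near the 31.5% of all genes tested.

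The mitosis genes also gave 0 calls, with a median log2 fold change of -0.09. At an unadjusted edgeR p under 0.05 there were 2 of 22 (9.09%), against 3.98% of all genes tested. A negative log2 fold change was found for 20 of 22 (90.9%), against 49.8% of all genes tested. That direction too depended on single libraries. The mean CPM was lower with Ptbp1 siRNA in 10 of 22 without Ptbp1 siRNA 2 and in 11 of 22 without NC siRNA 1. It was lower in 21 of 22 without Ptbp1 siRNA 1 and in 22 of 22 without NC siRNA 2. Between libraries of the same number, the median log2 difference, Ptbp1 siRNA minus NC siRNA, was -0.09 for number 1 and -0.15 for number 2. Aurka, a kinase of the spindle poles, had 9.30 and 8.25 CPM with Ptbp1 siRNA, against 11.6 and 12.1 CPM with NC siRNA (-0.43 on the log2 scale, SE 0.17, edgeR adjusted p = 1.00). Nusap1, a spindle microtubule protein gene, had 13.6 and 13.8 CPM with Ptbp1 siRNA, against 18.9 and 16.3 CPM with NC siRNA (-0.36 on the log2 scale, SE 0.14, edgeR adjusted p = 1.00). Kif11, the motor that separates the poles, had 26.7 and 23.6 CPM with Ptbp1 siRNA, against 31.9 and 27.3 CPM with NC siRNA. For each of these 3 genes both Ptbp1 siRNA libraries were lower, as for 4 of the 22 in all, or 18.2%, against 15.9% of all genes tested. Both were higher for 0 of the 22, against 15.6% of all genes tested. In either direction, the groups did not overlap for 18.2% of the mitosis genes, against 31.5% of all genes tested. Without NC siRNA 1 or without Ptbp1 siRNA 2, the fit again called 0 members, 0 other replication genes and 0 mitosis genes.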

How the data were processed

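RNA was extracted on RNeasy columns and made into SMARTer mRNA libraries, per the labels' protocols. Per the submitters' processing notes the builds are GRCm38 and mm10, names of the same assembly. Aligner, counter, strand setting and the test behind the deposited p-values: not given in the sources used here. Deposited by the authors were whole-number counts per gene and library, FPKM, a signal of group means of scaled counts (not used), and a log2 fold change with p-values and adjusted p-values, per the file headers.

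Counts were fitted with edgeR 4.0.16 in R 4.3.3 over all genes (quasi-likelihood test, TMM, filterByExpr, group as the only term). A call is a two-sided Benjamini-Hochberg adjusted p under 0.05. Of 29505 genes with a count, 16368 were tested. SEs and 95% intervals derive from the quasi-F statistic, with 2 residual and 14.0 prior degrees of freedom. Deviations used log2 CPM with a prior count of 2. The fit was checked on simulated counts.

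The members and lists were chosen with earlier results of these data known. Named in full are, per role, the member with the most CPM and the one with the smallest p, with the 3 smallest p-values of each comparison list. Principal transcripts, exon overlap and shared stretches come from GENCODE M21, whose gene bounds equal the deposited ones for 39 of 40 members, all but Pola2. Promoters come from RefSeq (GRCm38.p6). Alternatives were RLE scaling, no scaling factor, DESeq2 1.42.0, other count filters, a block for replicate number and the omission of each library in turn. The use of principal transcript length was chosen after seeing the data. Counts can include PCR copies.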

Additional observations from a re-analysis of the deposited data

How the results depend on the processing

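With 2 libraries per group, depth limited the rare members most: Fen1, Gins1, Pole2 and Orc1 averaged under 5 CPM. Calls among the members, the other replication genes and the mitosis genes were 0 under every alternative run, which were RLE scaling, no scaling factor, DESeq2, an unfiltered table, a minimum mean of 1 CPM, the replicate block and each library left out. At an unadjusted p under 0.05 those fits gave 0 to 2 members, where 0.512% to 6.54% of all genes in them passed. Over all genes, 4 were called by edgeR, 50 in the unfiltered table, 36 under the replicate block and 34 to 75 without 1 library. The fits of the unfiltered table and of 3 libraries had infinite prior degrees of freedom. With 1 library of a group left, that library is assumed to vary like the others. The smallest adjusted p of a member was 0.640 without NC siRNA 2 and 0.650 with the replicate block. Samples with the same number shared only that number in the labels, and their deviations had a correlation of 0.0909 across all genes tested, 0.217 across genes of at least 10 CPM and 0.243 across the members, as descriptions over genes, which are not independent replicates.

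The median log2 fold change of the members stayed within 0.0767, the within-group SD of the per-library medians pooled over both groups, of its value of -0.04 in all alternatives, and ranged from -0.09 to 0.02 without 1 library. Members whose groups did not overlap numbered 11 or 12. That count was not run with a library left out, since 1 library against 2 separates more often. Of the genes named in full, 3 changed sign without 1 library. E2f1 ranged from -0.085 to 0.42, Uhrf1 from -0.20 to 0.036 and Lig1 from -0.0093 to 0.054 on the log2 scale, and the cause was not tested. Ptbp1 ranged from -0.61 to -0.55 and was called each time. The ratio of the highest to the lowest level among Mcm2 to Mcm7 was 2.16 with the deposited length and 2.72 with the principal transcript.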
